A study of Mus musculus with 6 samples.

Results

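Endothelial cells line the blood vessels, and epithelioid hemangioendothelioma (EHE) is a rare cancer with an endothelial character. The genes described here are 10 mouse genes whose products sit on the endothelial surface, join endothelial cells to each other or are stored in them: Cdh5, Cldn5, Esam and Pecam1 at junctions, the sialomucins Podxl, Cd34 and Emcn, and Ecscr, Eng and Vwf. They were chosen by symbol with earlier results of these data known, and 10 of 10 were found among the 55401 genes of the count table. EHE tumours taken from the peritoneal surface of C57BL6 mice of a genetically engineered EHE model (3 libraries) were set against livers of C57BL6 mice (3 libraries). The labels give no genotype, promoter, Cre line, age or sex, nor do they state that each sample was a different mouse. The p-values therefore reflect only the spread among these libraries, which may not be a spread among mice. Tumour state and tissue differ together in this design, so their parts in a difference cannot be told apart.

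Endothelial cells are held together by adherens junctions built on VE-cadherin and by tight junctions that contain claudin-5, while sialomucins such as podocalyxin, CD34 and endomucin coat the luminal face of the vessel with negative charge. Von Willebrand factor is stored inside the cells in Weibel-Palade bodies and released to catch platelets. The sinusoids of the liver are lined by a thin, fenestrated endothelium that carries little CD34 or von Willebrand factor in healthy tissue, whereas portal and central vessels of the liver have a continuous lining.

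The libraries held between 38068941 and 40277346 counts for the tumours, and between 33881392 and 39600125 for the livers. Levels are given as CPM, which are counts divided by edgeR's TMM-adjusted library size; that adjustment allows for differences in library make-up. Most vascular endothelial markers were higher in tumours and hepatocyte markers in livers, but the tumours also held skeletal muscle markers. The muscle markers summed to 1407, 10508 and 2506 CPM in tumours 1 to 3 and to 1.43 CPM or less in each liver. Of 8 other vascular endothelial markers (Kdr, Flt1, Tie1, Tek, Erg, Sox17, Sox18 and Egfl7), 7 were higher in tumours, and their sum was 967 to 2071 CPM in tumours and 97.0 to 127 CPM in livers. The 7 hepatocyte markers measured summed to 7.67 to 15.3 CPM in tumours and 155643 to 234292 CPM in livers, with all 7 lower in tumours. Camta1, a partner of the fusion that commonly defines EHE, had 174 ± 54.7 CPM in tumours and 7.15 ± 1.58 CPM in livers (SD, n = 3 each). Wwtr1, the other partner, differed less, with 45.7 ± 4.64 CPM in tumours and 26.9 ± 3.23 CPM in livers. Counts above 0 were seen for 33274 genes in liver 2, more than the 19767 of liver 1 and the 19001 of liver 3.

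All 10 genes were higher in tumours than in livers. By edgeR's quasi-likelihood test 10 of 10 were called higher at an adjusted p under 0.05, where 29.5% of the 17387 genes tested were called higher (58.2% in either direction). Every tumour exceeded every liver for 10 of 10, as for 35.1% of all genes tested (33.1% had every tumour below every liver). All 10 were also called higher with a fitted change of at least 2-fold, against 25.5% of all genes. A test against a 2-fold change itself called 10 of 10, and 19.1% of all genes. As the 10 genes were chosen with earlier results of these data known, these counts are descriptions only. Fitted log2 fold changes ran from 1.70 (Vwf) to 7.57 (Podxl) with a median of 4.36, and the median of all genes was 0.10. All 10 passed the filter on low counts, and the lowest value in any library was 37 counts. In bulk tissue a larger share of endothelial cells and more RNA per cell cannot be told apart.

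**Figure D1:**
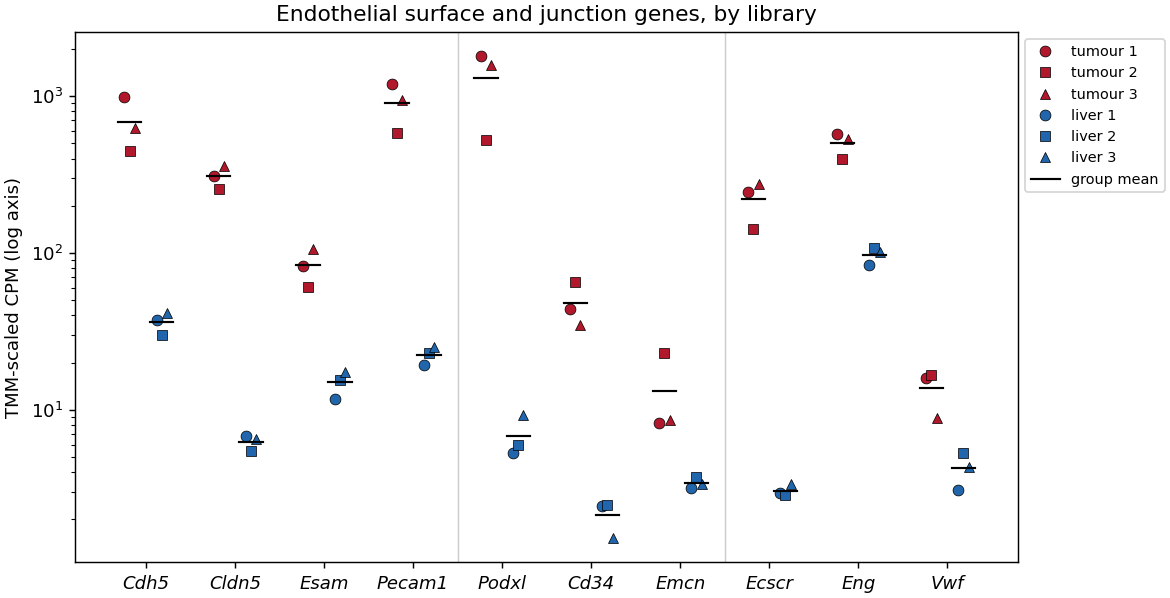
TMM-scaled CPM (log axis) of the 10 genes in each library, with EHE tumours in red left of livers in blue and a bar at each group mean. All 3 tumours lie above all 3 livers for each gene, with the widest gap for Podxl and the narrowest for Vwf and Emcn.

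Among the junction genes, Cldn5 and Pecam1 rose most. Cdh5 encodes VE-cadherin, the adhesion protein of endothelial adherens junctions (ENSMUSG00000031871, chromosome 8, 104101625 to 104144511, GRCm38). It had 984, 447 and 627 CPM in tumours 1 to 3, against 37.4, 30.2 and 41.6 CPM in livers 1 to 3. All tumours lay far above all livers, and tumour 2 was the lowest of them. On the log2 scale this was a rise of 4.24 (SE 0.38, edgeR adjusted p = 0.000114). Pecam1, or CD31, which binds itself across the junction and is also found on platelets and leukocytes (ENSMUSG00000020717, chromosome 11, 106654217 to 106750628), had 1204, 578 and 948 CPM in tumours 1 to 3, against 19.3, 23.1 and 25.1 CPM in livers 1 to 3. For this gene too tumour 2 was the lowest tumour. The log2 fold change was 5.34 (SE 0.38, edgeR adjusted p = 4.45e-05).

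Cldn5 encodes claudin-5, the main claudin of endothelial tight junctions (ENSMUSG00000041378, chromosome 16, 18776847 to 18778262). It had 309, 256 and 361 CPM in tumours 1 to 3, against 6.85, 5.46 and 6.52 CPM in livers 1 to 3. The values varied little within either group, and the log2 fold change was 5.62 (SE 0.25, edgeR adjusted p = 1.18e-05). Esam, an immunoglobulin-type adhesion molecule of endothelial tight junctions and platelets (ENSMUSG00000001946, chromosome 9, 37528078 to 37538319), had 83.2, 61.1 and 106 CPM in tumours 1 to 3, against 11.8, 15.6 and 17.5 CPM in livers 1 to 3. Its rise was the smallest of the 4 junction genes, at a log2 fold change equal to 2.48 (SE 0.26, edgeR adjusted p = 0.000257).

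The 3 sialomucins moved by very different amounts. Podxl encodes podocalyxin, an anti-adhesive protein of the CD34 family that podocytes and mesothelial cells also make (ENSMUSG00000025608, chromosome 6, 31519488 to 31563981). It had 1795, 528 and 1590 CPM in tumours 1 to 3, against 5.31, 5.94 and 9.29 CPM in livers 1 to 3. Tumours 1 and 3 were close to each other and tumour 2 lay far below them, yet all were well above the livers. With a log2 fold change equal to 7.57 (SE 0.65, edgeR adjusted p = 9.84e-05), Podxl rose the most of the 10 genes and more than 98.7% of all genes tested.

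Cd34, a sialomucin of capillary endothelium that blood progenitors and some fibroblasts also carry (ENSMUSG00000016494, chromosome 1, 194938819 to 194961279), had 44.0, 65.8 and 34.6 CPM in tumours 1 to 3, against 2.43, 2.47 and 1.53 CPM in livers 1 to 3. Here tumour 2 was the highest tumour. The log2 fold change was 4.49 (SE 0.34, edgeR adjusted p = 6.08e-05). Emcn encodes endomucin, a sialomucin of capillary and venous endothelium (ENSMUSG00000054690, chromosome 3, 137341067 to 137432185), and had 8.22, 23.0 and 8.66 CPM in tumours 1 to 3, against 3.16, 3.73 and 3.34 CPM in livers 1 to 3. Tumour 2 again stood highest, and by far. The log2 fold change equal to 1.96 (SE 0.45, edgeR adjusted p = 0.00843) was 1.31 without tumour 2 (adjusted p = 0.00488), the only library whose removal moved a fold change of the 10 genes by more than 1.5 times. Over all alternatives tried the adjusted p of Emcn ran from 1.25e-07 to 0.0438.

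Ecscr, a membrane protein of endothelial cells linked to their migration and survival (ENSMUSG00000073599, chromosome 18), had 245, 142 and 277 CPM in tumours 1 to 3, against 2.96, 2.86 and 3.34 CPM in livers 1 to 3. It came second to Podxl, with a log2 fold change equal to 6.18 (SE 0.34, edgeR adjusted p = 1.87e-05). Only 62 exon bases (3.54% of its own) are shared with a gene on the opposite strand, 1700066B19Rik, which had at most 45 counts in any library. Eng encodes endoglin, a co-receptor for BMP9 and other TGF-beta family ligands (ENSMUSG00000026814, chromosome 2, 32646595 to 32682669). Its values were 578, 400.3 and 533 CPM in tumours 1 to 3, against 83.5, 107 and 101 CPM in livers 1 to 3. Of the 10 genes Eng was the most abundant in liver, and it rose by a log2 fold change equal to 2.37 (SE 0.25, edgeR adjusted p = 0.000223). It shares 61 exon bases (1.51%) with Fpgs on the opposite strand, which had 717 to 921 counts in tumours and 3213 to 3952 in livers. Cd34 shares 148 exon bases (2.03%) with the antisense gene Gm16897, which had at most 24 counts. As the strand setting of the counting is not known, reads in these stretches cannot be assigned to either gene.

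Vwf encodes von Willebrand factor, the platelet-tethering glycoprotein that endothelial cells and megakaryocytes make (ENSMUSG00000001930, chromosome 6, 125546774 to 125686679). It had 15.9, 16.8 and 8.82 CPM in tumours 1 to 3, against 3.08, 5.33 and 4.33 CPM in livers 1 to 3. The groups did not overlap, and tumour 3 lay closest to the livers. The log2 fold change was 1.70 (SE 0.35, edgeR adjusted p = 0.00483), the smallest of the 10. Of 10 platelet and megakaryocyte markers 7 were tested. Pf4 was higher in tumours (3 of 7 with library totals alone, 2 of 7 without tumour 2) and none were lower. Gp1bb had 1 count over the tumours and 0 over the livers. The sum was 24.5 to 36.7 CPM in tumours and 10.2 to 12.5 CPM in livers. Without Pf4 it was 9.61, 5.57 and 16.5 CPM in tumours 1 to 3, against 10.4, 10.01 and 8.38 CPM in livers 1 to 3, so the groups then overlapped. Their part in the Vwf, Pecam1 and Esam values was not tested.

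**Figure D2:**
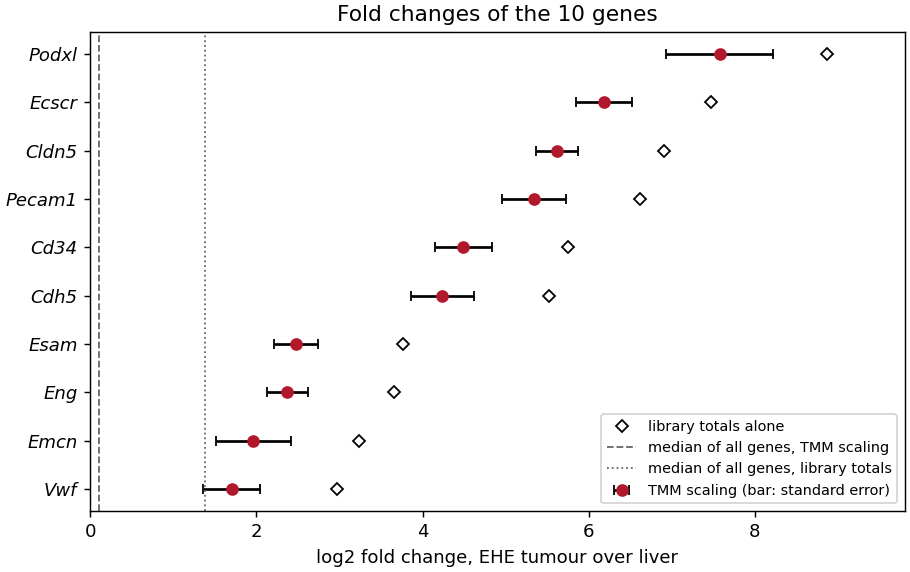
Log2 fold change of EHE tumour over liver for each gene (filled points, bars are standard errors, TMM scaling) and the same with library totals alone (open diamonds). Vertical lines mark the median of all genes under each scaling, and all 10 genes lie to the right of both.

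The size of these rises depends on the scaling. With library totals alone the median of all genes moved by 1.28 on the log2 scale, to 1.38, and the share of calls that were higher was 83.1% in place of 50.8%. Under that scaling the 10 log2 fold changes ran from 2.96 (Vwf) to 8.87 (Podxl), and under limma on log2(FPKM + 1), a scale that understates changes of genes with low values, from 1.70 (Vwf) to 7.40 (Podxl). The median of all genes in that FPKM fit was 0.98. None of the alternatives turned the direction or ended the call of any of the 10 genes.

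RefSeq promoters on GRCm38.p6 were at hand for 4 of the 10 genes, all on the forward strand. The 250 bases before the start of each are shown because ETS factors such as ERG and FLI1 are well-known regulators of endothelial genes and the 4 genes differ in fold change. Capitals mark matches on either strand to CNGGAA, a string narrower than the GGAA core of ETS sites. They are Cldn5 at chr16:18776597-18776846, Eng at chr2:32646345-32646594, Cd34 at chr1:194938571-194938820 and Emcn at chr3:137340828-137341077.
Cldn5: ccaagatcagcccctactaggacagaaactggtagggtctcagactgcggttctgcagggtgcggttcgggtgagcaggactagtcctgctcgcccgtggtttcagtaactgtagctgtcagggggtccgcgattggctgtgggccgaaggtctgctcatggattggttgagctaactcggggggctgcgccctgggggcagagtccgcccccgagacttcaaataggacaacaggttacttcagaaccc
Eng: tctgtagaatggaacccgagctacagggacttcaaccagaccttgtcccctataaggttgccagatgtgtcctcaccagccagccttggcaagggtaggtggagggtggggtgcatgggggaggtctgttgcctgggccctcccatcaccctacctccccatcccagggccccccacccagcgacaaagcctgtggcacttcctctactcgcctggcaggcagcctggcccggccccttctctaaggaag
Cd34: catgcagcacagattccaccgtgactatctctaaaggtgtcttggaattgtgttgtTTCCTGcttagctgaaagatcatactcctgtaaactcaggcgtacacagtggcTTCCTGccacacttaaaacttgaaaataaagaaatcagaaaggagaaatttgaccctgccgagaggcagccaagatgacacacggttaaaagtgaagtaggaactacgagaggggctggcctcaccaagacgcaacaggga
Emcn: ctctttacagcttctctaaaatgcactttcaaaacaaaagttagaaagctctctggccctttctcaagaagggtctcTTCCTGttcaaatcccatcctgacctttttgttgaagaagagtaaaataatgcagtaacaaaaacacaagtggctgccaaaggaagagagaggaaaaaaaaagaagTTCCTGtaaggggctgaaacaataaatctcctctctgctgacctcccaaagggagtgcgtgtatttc

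Cd34 and Emcn each held 2 matches, read as TTCCTG on the strand shown, starting 194 and 141 bases before the start in Cd34 and 173 and 67 bases before it in Emcn. The windows of Cldn5 and Eng held no CNGGAA. The shorter GGAA also occurs, unmarked, in the Eng, Cd34 and Emcn windows, so an absent mark does not mean an absent ETS core. Among 32851 promoter windows of the same length, 54.2% held at least 1 such match. The TEAD motif CATTCC (12.6% of windows) and the GATA motif AGATAA (9.99%) were searched on both strands and not found in these 4 windows. No TEAD match therefore overlapped a CNGGAA match. A match is only a run of letters and says nothing about binding.

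Levels of different genes were compared in FPKM, fragments scaled by transcript length and library size, since CPM is not corrected for length. The order differed between the tissues. In tumours the means were 369 ± 130.4 FPKM for Pecam1, 349 ± 128 for Ecscr, 327 ± 175 for Podxl, 326 ± 66.8 for Cldn5, 231 ± 93.8 for Cdh5 and 211 ± 44.3 for Eng (SD, n = 3 each). The ranges of neighbours among these 6 genes overlapped, so their order is not resolved. Below them, without overlap, came Esam (63.6 ± 19.3 FPKM), Cd34 (30.9 ± 8.70), Emcn (12.6 ± 7.61) and Vwf (3.97 ± 1.38). In livers Eng led at 17.5 ± 2.63 FPKM, clear of Cdh5 (5.09 ± 0.948), Esam (4.74 ± 1.02) and Pecam1 (3.84 ± 0.531), of which neighbours overlapped. Cldn5 (2.77 ± 0.385), Ecscr (1.84 ± 0.284) and Emcn (1.27 ± 0.0874) followed in that order without overlap. Podxl (0.705 ± 0.235), Cd34 (0.634 ± 0.234) and Vwf (0.492 ± 0.133) were lowest in livers and overlapped. Ranked by FPKM among all genes of a library, Pecam1 was 153rd, 335th and 189th in tumours 1 to 3 and 7619th, 7261st and 6882nd in livers 1 to 3. Vwf ranked no higher than 9488th in any tumour.

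The 10 genes together summed to 2300, 1237 and 2236 FPKM in tumours 1 to 3, against 34.9, 38.3 and 43.3 FPKM in livers 1 to 3. They took 0.799%, 0.387% and 0.728% of all counts in tumours 1 to 3, against 0.0111%, 0.0138% and 0.0131% in livers 1 to 3. Tumour 2 thus held the least of these transcripts among tumours, and the livers were alike. Within the sum, Eng made up 11.3% ± 1.45 in tumours and 44.9% ± 3.84 in livers, and Esam 3.36% ± 0.535 in tumours and 12.1% ± 1.36 in livers (SD, n = 3 each). Podxl went the other way, at 16.0% ± 5.03 in tumours and 1.79% ± 0.406 in livers, as did Ecscr, at 18.0% ± 2.29 in tumours and 4.74% ± 0.655 in livers, and Cldn5, at 17.6% ± 3.49 in tumours and 7.20% ± 1.41 in livers. Cdh5 took a like share of both, 11.9% ± 2.28 in tumours and 13.1% ± 2.34 in livers.

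**Figure D3:**
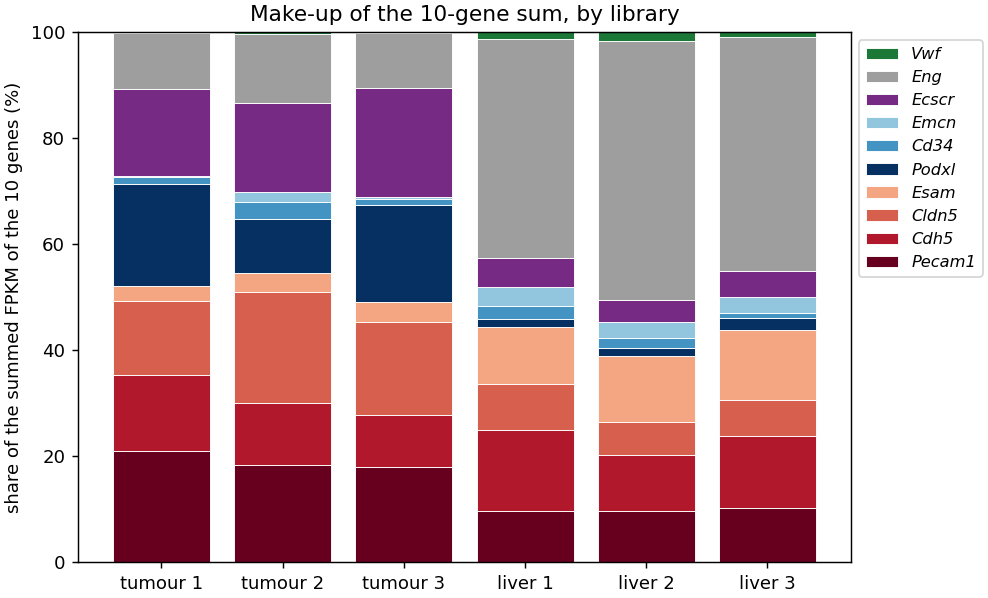
Share (%) of each gene in the summed FPKM of the 10 genes, stacked for each library, with EHE tumours left of livers. Eng fills 10.4% to 12.9% of the sum in tumours, where Pecam1, Cldn5, Ecscr and Podxl hold most of it, and 41.4% to 49.0% in livers.

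Relative to Pecam1, which all vascular endothelial cells carry, the other 9 genes did not shift as a block. Podxl had 0.922, 0.557 and 1.03 times the FPKM of Pecam1 in tumours 1 to 3, against 0.167, 0.154 and 0.221 times in livers 1 to 3, a log2 difference of 2.18. Ecscr differed by 0.98. Ratios to Pecam1 were lower in tumours for Vwf (log2 difference -3.55), Emcn (-3.38), Eng (-2.94), Esam (-2.80) and Cdh5 (-1.09). For these 7 genes the groups did not overlap. With 3 against 3 libraries the two-sided exact permutation test cannot go below p = 0.1, which each of the 7 reached (adjusted p = 0.129 over 9 ratios), so none passed. Cldn5 (0.34) and Cd34 (-0.87) overlapped between groups, both at exact permutation p = 0.2. Without tumour 2 the Emcn difference was -4.16 and the Vwf difference -4.05. With Cdh5 in place of Pecam1 the Cd34 difference turned to 0.21, and the other directions held.

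**Figure D4:**
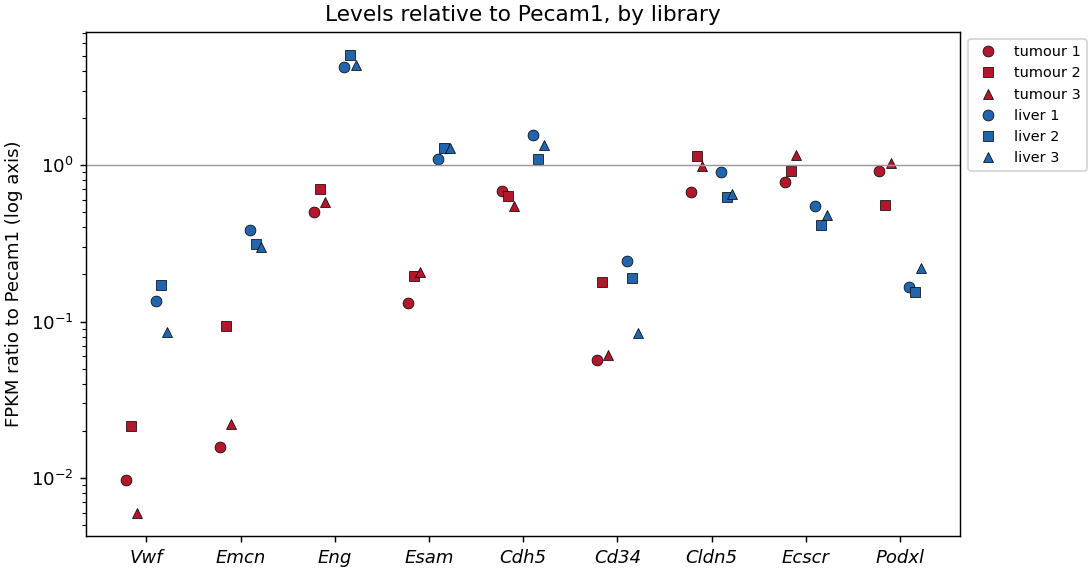
FPKM of each gene divided by that of Pecam1 in the same library (log axis), with EHE tumours in red left of livers in blue, ordered by the difference between groups. Vwf, Emcn, Eng, Esam and Cdh5 lie lower in all tumours than in all livers, Ecscr and Podxl lie higher, and Cd34 and Cldn5 overlap.

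The tumours did not vary in step across the 10 genes. Tumour 2 was the lowest tumour for 7 genes (Podxl, Pecam1, Ecscr, Cdh5, Esam, Eng and Cldn5), from 0.405 of the tumour mean for Podxl to 0.829 for Cldn5. It was the highest tumour for the other 3, at 1.21 times the mean for Vwf, 1.37 for Cd34 and 1.73 for Emcn. Marker sums of other cells also set tumour 2 apart, and their part in this pattern was not tested. Skeletal muscle markers (6 of 6 higher in tumours) summed to 1407, 10508 and 2506 CPM in tumours 1 to 3 and to 1.43 CPM or less in each liver, with Myh1 at 0 counts in all livers. Leukocyte and macrophage markers (4 of 10 higher and 2 lower; 7 higher and 1 lower with library totals alone; 1 higher without liver 2, with the replicate block or against a 2-fold change; 2 higher without liver 3 or with limma-voom; 1 lower without tumour 1 or without liver 1) summed to 411, 1239 and 260 CPM in tumours 1 to 3 and 324 to 879 CPM in livers. Mesothelial markers (5 of 7 higher, 7 with library totals alone and 3 without liver 2) summed to 85.0, 256 and 79.0 CPM in tumours 1 to 3 and 33.0 CPM or less in each liver.

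**Figure D5:**
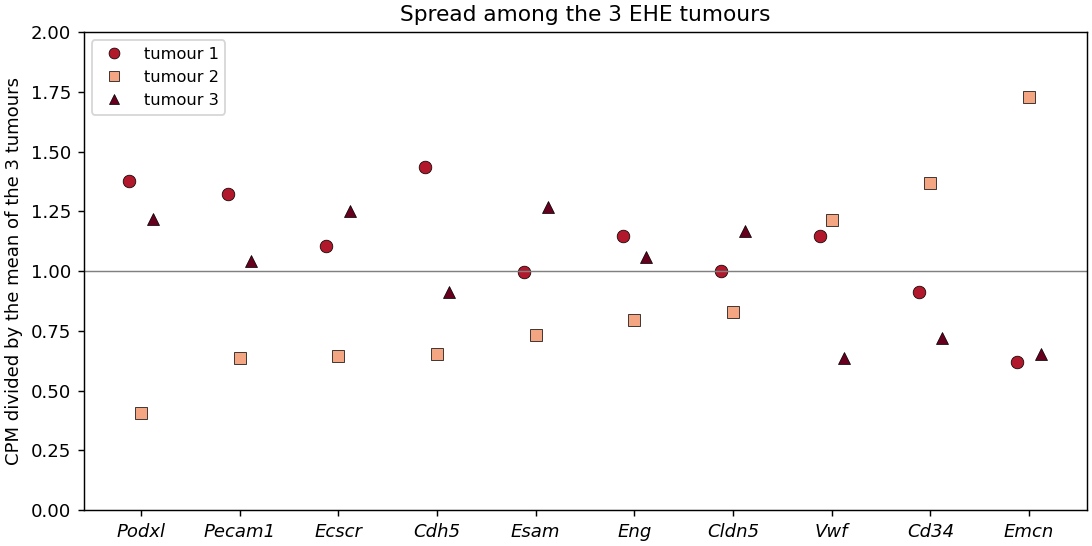
CPM of each gene in the 3 EHE tumours, divided by the mean of the 3, ordered by the value in tumour 2. Tumour 2 lies at 0.405 of the mean for Podxl and at 1.73 times the mean for Emcn, with the other genes between.

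Markers of other endothelial and stromal cells moved in mixed directions. Of 8 markers of liver sinusoidal endothelium 1 was higher (Lyve1) and 5 were lower, or 3 higher and 4 lower with library totals alone, with a median log2 fold change of -3.22. The sum was 143 to 347 CPM in tumours and 290 to 365 CPM in livers, and Lyve1, Fcgr2b and Mrc1 made up most of it in tumours. Stab2 had 1.39, 3.13 and 2.16 CPM in tumours 1 to 3, against 33.9, 52.6 and 49.4 CPM in livers 1 to 3, and Clec4g had 0.262 to 0.291 CPM in tumours and 46.2 to 70.0 CPM in livers. Of 6 lymphatic endothelial markers 5 were tested, 4 were higher and 1 lower, and the sum was 624 to 1304 CPM in tumours and 210 to 344 CPM in livers, with Ccl21a at 0 counts in all livers. Fibroblast markers (6 of 7 higher) summed to 1039 to 1648 CPM in tumours and 347 to 426 CPM in livers. Pericyte and smooth muscle markers (5 of 8 higher; 2 without tumour 1, without liver 1 or without liver 3; 3 with 1 lower without tumour 2; 2 against a 2-fold change) summed to 75.9 to 137 CPM in tumours and 39.1 to 72.0 CPM in livers. Their part in the values of the 10 genes was not tested.

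Of 86 other genes of junctions, endothelial surface and the pathways the 10 genes act in, 85 were tested. In tumours 46 were higher and 19 lower, against 29.5% and 28.7% of all genes tested, with a median log2 fold change of 1.15 beside 0.10 for all genes. With library totals alone 59 were higher and 15 lower, where 10688 of the 17387 genes tested were higher and 2172 lower. Counts with library totals alone for single lists stand beside those same numbers. The lists were chosen with earlier results of these data known, so these counts are descriptions only.

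Adherens junction genes and VE-cadherin partners were mostly higher, 14 of 21, with 2 lower and a median log2 fold change of 1.41. Cdh13 (T-cadherin, a cadherin anchored in the membrane by lipid) had 717 ± 379.6 CPM in tumours and 2.58 ± 0.875 CPM in livers (SD, n = 3 each; log2 fold change 8.12, SE 0.65, edgeR adjusted p = 7.23e-05). Cdh2 (N-cadherin, which hepatocytes also make) fell to 8.49 ± 3.27 CPM in tumours, against 150.4 ± 10.7 CPM in livers (log2 fold change -4.15, SE 0.34, edgeR adjusted p = 8.25e-05). Tight junction genes went mostly the other way, with 4 of 16 higher, 9 lower and a median of -1.58 (5 higher and 8 lower with library totals alone). This list was not limited to junctions of endothelial cells, and the part of hepatocytes in the lower levels was not tested. Cldn14, another claudin, had 0 counts in all tumours and 1320 counts over the livers. It was at least 368-fold lower in tumours if each tumour is set to 3 counts (counting error only). That bound would be smaller if both mates of a pair were counted. Jam3, a junctional adhesion molecule, rose by a log2 fold change equal to 3.22 (SE 0.49, edgeR adjusted p = 0.00127). Of the claudins listed, Cldn5 was higher in tumours and Cldn1, Cldn2, Cldn3, Cldn12 and Cldn14 were lower.

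Of 13 other endothelial surface glycoproteins tested, 10 were higher and none lower, with a median log2 fold change of 3.03. Among these 13, Clec14a was called lower without a count filter, with DESeq2, with limma-voom and without tumour 2. The largest rise among them was in Cd248 (endosialin, a pericyte and fibroblast protein), at 5.40 (SE 0.54, edgeR adjusted p = 0.000192). Not all genes of this list are particular to endothelium. In the podocalyxin family and its cytoskeletal linkers 4 of 6 were higher and 2 lower (4 higher and 1 lower with library totals alone, 1 lower also against a 2-fold change and with limma on log2(FPKM + 1)). Podxl2 (endoglycan) rose by 4.38 (SE 0.73, edgeR adjusted p = 0.00195; 5.25 without liver 2), though to only 4.72 ± 2.49 CPM in tumours, against 0.226 ± 0.184 CPM in livers. Slc9a3r1 (NHERF1, a scaffold that links podocalyxin to ezrin) fell by 2.63 on the log2 scale (SE 0.29, edgeR adjusted p = 0.000288), with 53.0 ± 15.5 CPM in tumours and 327 ± 53.1 CPM in livers.

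Of 14 genes of Weibel-Palade bodies and von Willebrand factor handling, 7 were higher and 2 lower, with a median of 1.14 (10 higher and 1 lower with library totals alone). Plat (tissue plasminogen activator) had 772 ± 535.2 CPM in tumours and 1.01 ± 0.576 CPM in livers, a log2 fold change equal to 9.58 (SE 0.83; 8.86 without tumour 1; edgeR adjusted p = 0.000103). Adamts13, the protease that cleaves von Willebrand factor, had 3, 0 and 5 counts in tumours 1 to 3, against 130, 206 and 90 counts in livers 1 to 3, a log2 fold change equal to -7.00 (SE 0.88; -7.72 without tumour 3; edgeR adjusted p = 0.000568). In the endoglin receptor complex and its SMAD response, 7 of 15 were higher and 4 lower, with a median of 0.55. Of all genes tested 29.5% were higher and 28.7% lower. The list counts were 9 higher and 3 lower with library totals alone and 4 higher against a 2-fold change. With limma on log2(FPKM + 1) 2 were lower, with or without its filter. The endoglin partner Acvrl1 (ALK1) had 141 ± 22.8 CPM in tumours and 5.51 ± 1.16 CPM in livers (log2 fold change 4.68, SE 0.25, edgeR adjusted p = 1.67e-05). The ligand gene Bmp10 held 2 counts over all tumours, both in tumour 1, and 584 over all livers. The livers thus had 738 times the scaled level of the tumours (exact 95% interval 203 to 6111, for counting error only). That interval takes each count as independent, and it is too narrow if both mates of a pair were counted.

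The 5 genes whose profile over the 6 libraries lay closest to the mean profile of the 10 genes, among 9579 others with a mean of 10 or more CPM, were Hip1, Map3k6, Ctps, Trim47 and Spsb1. Likeness was the root mean square difference of log2 CPM after each gene's own mean was removed, from 0.04 for Hip1 to 0.13 for Spsb1. Hip1, which encodes a clathrin-binding endocytic adaptor, had 201, 142 and 168 CPM in tumours 1 to 3, against 8.84, 9.84 and 10.3 CPM in livers 1 to 3. The same measure for the 10 genes themselves ran from 0.27 for Cdh5 to 1.72 for Podxl. The 6 libraries fall into 2 groups, so all profiles share the difference between the tissues.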

How the data were processed

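Polyadenylated RNA from 3 EHE tumours and 3 livers was sequenced. Per the labels' protocols, tissue was kept frozen, RNA was isolated with a Qiagen kit and libraries were made by BGI's DNBSeq method. The tools HISAT2 2.1.0 and Cufflinks 2.2.1.3 and the build mm10 are named, per the submitters' processing notes, without their roles. The deposited counts are raw whole numbers per Ensembl gene; their counting tool and strand setting are not stated in the sources at hand. Among values of 1 to 10, 55.0% were even in liver 2 and 66.7% to 70.7% in the other libraries. Both mates of a pair may therefore have been counted. Liver 2 also had 17034 genes at 1 to 10 counts, against 4818 to 7281 in the other libraries. The deposited FPKM values were used for levels between genes and for alternatives. A listed FPKM of 0 at 100 or more counts occurred for 289 to 470 genes per library and for none of the 10 genes. Counts per FPKM, allowing for library totals, varied at most 1.67-fold across libraries for Vwf and 1.42-fold or less for the others.

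Samples were grouped by title. Counts were fitted with edgeR 4.0.16 in R 4.3.3 (filterByExpr, 17387 of 55401 genes; TMM; robust quasi-likelihood, no covariates), with Benjamini-Hochberg adjustment over all genes tested and a threshold of 0.05. Standard errors are the log2 fold change over the square root of F. Alternatives used DESeq2 1.42.0 and limma 3.58.1. All fits were tested on simulated counts with known fold changes. Replicate libraries differed by far more than sampling noise (chi-square per degree of freedom 105.4 or more), so none were merged. Coordinates are GENCODE M21 on GRCm38, the assembly of mm10. The 10 genes, the 6 pathway lists and the 10 marker lists were chosen with earlier results of these data known. Named genes are the 10 and the 5 genes most alike. From each pathway list, the called gene of 1 or more CPM with the largest change in each direction was also named. Plvap, Clec14a, Sox17, Robo4, Kdr, Camta1, Wwtr1, Pf4, Stab2, Clec4g and the claudins beside Cldn14 were named after their values were seen. The listed symbols Cd99 and Tf had no matching row and are not reported here.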

Additional observations from a re-analysis of the deposited data

How the results depend on the processing

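All 10 genes were called higher, and none lower, under each alternative run: other scalings, filters and tools, a test against a 2-fold change, FPKM in place of counts, a replicate block and leaving out each library. Counts over all genes did move, from 5137 higher and 4982 lower. They were 10688 and 2172 with library totals alone, 3314 and 2916 against a 2-fold change, 8613 and 2031 with limma on log2(FPKM + 1), 8608 and 2019 with a pseudocount of 0.1, and 9370 and 2152 without a filter on FPKM. Library totals alone leave out the TMM factors, which were 1.52 to 1.62 in tumours and 0.612 to 0.682 in livers. A test against a 2-fold change asks for a larger difference. Why the FPKM fits moved was not tested. Leaving out single libraries gave 4201 to 5150 higher and 4286 to 5178 lower.

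Deviations of same-numbered tumours and livers had correlations across genes of -0.03, -0.01 and -0.03. Those of unlike numbers ran from -0.10 to 0.13. In unlike tissues such values cannot show whether same-numbered samples shared a mouse or batch, and the numbers were used only as names. The replicate block gave 4516 higher and 4574 lower genes and kept the calls of all 10. The ratio of Cd34 to Pecam1 was the only one of 9 to change sign, to 0.21 with Cdh5 as the denominator, where Cdh5 itself had no value. Without tumour 2 the mean share in the summed FPKM of tumours was 0.362% for Emcn (0.816% with it), 1.15% for Cd34 (1.86%) and 0.155% for Vwf (0.234%). The spread among tumours limits precision: its coefficient of variation was 17.0% to 63.2% in tumours and 8.3% to 31.2% in livers over the 10 genes, and was larger in tumours for each. No results met the rules for a closer look.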

Other observations

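Some other endothelial genes did not follow the 10. Plvap, a protein of fenestral and caveolar diaphragms, had 475, 85.2 and 88.3 CPM in tumours 1 to 3, against 83.6, 88.9 and 103 CPM in livers 1 to 3. Only tumour 1 exceeded all livers. The log2 fold change was 1.23 (edgeR adjusted p = 0.158, alternatives from 0.014 to 0.774), and -0.075 without tumour 1. It passed with library totals alone (edgeR adjusted p = 0.014), without tumour 2 (0.0482) and with limma on filtered log2 FPKM (0.0294 with a pseudocount of 1). Clec14a, an endothelial C-type lectin, had 5.32, 15.7 and 8.77 CPM in tumours 1 to 3, against 24.5, 17.2 and 18.5 CPM in livers 1 to 3. Its log2 fold change of -1.02 (edgeR adjusted p = 0.0612, alternatives from 0.00419 to 0.769) was 0.27 with library totals alone and 0.12 with limma on log2(FPKM + 1). It passed as lower without a count filter, with DESeq2, with limma-voom and without tumour 2. Sox17, a transcription factor of arterial endothelium, had 1.06 ± 0.499 CPM in tumours and 1.28 ± 0.477 CPM in livers (SD, n = 3 each), with overlapping values.

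Robo4, a guidance receptor of endothelium, was also highest in tumour 2, like Emcn and Cd34, with 28.8, 75.9 and 22.4 CPM in tumours 1 to 3, against 7.62, 16.9 and 11.9 CPM in livers 1 to 3. Kdr, the main VEGF receptor, hardly varied among tumours, with 142, 149.8 and 152 CPM in tumours 1 to 3, against 37.2, 55.8 and 56.4 CPM in livers 1 to 3. The cause of these differences was not tested.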
